A study of Mus musculus with 8 samples.

Results

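Neurofilaments are the intermediate filaments of neurons, and the 5 genes described here encode their subunits: the light, medium and heavy neurofilament chains (Nefl, Nefm and Nefh), alpha-internexin (Ina) and peripherin (Prph). Members were matched by symbol in the authors' normalized table and joined by Ensembl identifier to the count files. All 5 of 5 were found among 48823 gene identifiers and all 5 were among the 16990 genes that passed the filter on low counts. They were read from a fit over all of those genes.

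Intermediate filaments are rope-like polymers of the cytoskeleton. In large axons the light chain forms the core of the filament, and the medium and heavy chains add long side arms that space the filaments and help set axon calibre. Alpha-internexin is prominent in young neurons, and peripherin is a partner subunit in peripheral sensory and autonomic neurons. REST is a DNA-binding repressor that keeps many neuronal genes off outside neurons. Splicing of exon 4 into Rest mRNA yields a shortened REST protein with little repressor activity.

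RNA was sequenced from utricles, gravity-sensing organs of the inner ear, dissected from C57BL/6 mouse embryos at E15.5. There were 4 libraries from embryos of genotype Rest(+/deltaExon4), which lack exon 4 on 1 allele (called mutant below, although the sample titles say KO), and 4 from wild-type embryos. Each library pooled the RNA of 7 to 9 mice, so the replicates are pools. Wild-type replicate 4 carries a slightly later age label and a strain name that differs by 1 digit. The whole organ was used, so hair cells, supporting cells, mesenchyme, glia and nerve all contribute RNA, and fewer cells of a type cannot be told apart from less RNA per cell. Read pairs on genes numbered 20365225 to 24557189 per library. Levels are given as CPM, the read pairs of a gene scaled to a common library size. Rest itself had 127 ± 3.20 CPM in the mutants against 116 ± 7.35 CPM in the wild type (SD over 4 libraries each), and gene counts do not show whether exon 4 was used. Wild-type libraries had more read pairs outside genes (18.4% to 22.2%) than mutant libraries (11.9% to 18.3%) and more genes detected, with no overlap in either measure. These differences between the libraries cannot be told apart from the genotype.

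Nefl and Nefm lie side by side on chromosome 14 and are transcribed from opposite strands, and this layout affects how their reads were counted. In GENCODE M21 (GRCm38), Nefl (ENSMUSG00000022055) spans 68083863 to 68089095 on the plus strand. Nefm (ENSMUSG00000022054) spans 68082590 to 68124846 on the minus strand and has 2 annotated transcripts. The last exon of the longer one, Nefm-202, runs across the first exon of Nefl and shares 1108 exonic bases with it, at 68083863 to 68084970. Of these, 144 bases code for protein in both genes, on opposite strands. They are printed in capitals below, as each transcript reads them, because a read from this stretch names neither gene unless its strand is known. In Nefl-201 (chr14:68084827-68084994, plus strand) the 24 bases in lower case are the coding bases that follow. In Nefm-202 (minus strand, capitals at chr14:68084827-68084970) the 24 bases in lower case are the end of the preceding exon.

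Nefl-201: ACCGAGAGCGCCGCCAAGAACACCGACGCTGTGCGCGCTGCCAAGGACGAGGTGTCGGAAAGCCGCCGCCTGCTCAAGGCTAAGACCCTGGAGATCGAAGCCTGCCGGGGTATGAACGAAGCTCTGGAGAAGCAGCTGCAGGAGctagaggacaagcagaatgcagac
Nefm-202: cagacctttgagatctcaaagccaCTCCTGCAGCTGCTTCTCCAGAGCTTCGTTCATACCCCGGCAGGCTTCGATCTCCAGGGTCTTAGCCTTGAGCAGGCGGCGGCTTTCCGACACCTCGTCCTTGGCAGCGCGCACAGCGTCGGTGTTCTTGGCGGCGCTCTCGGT

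**Figure D1:**
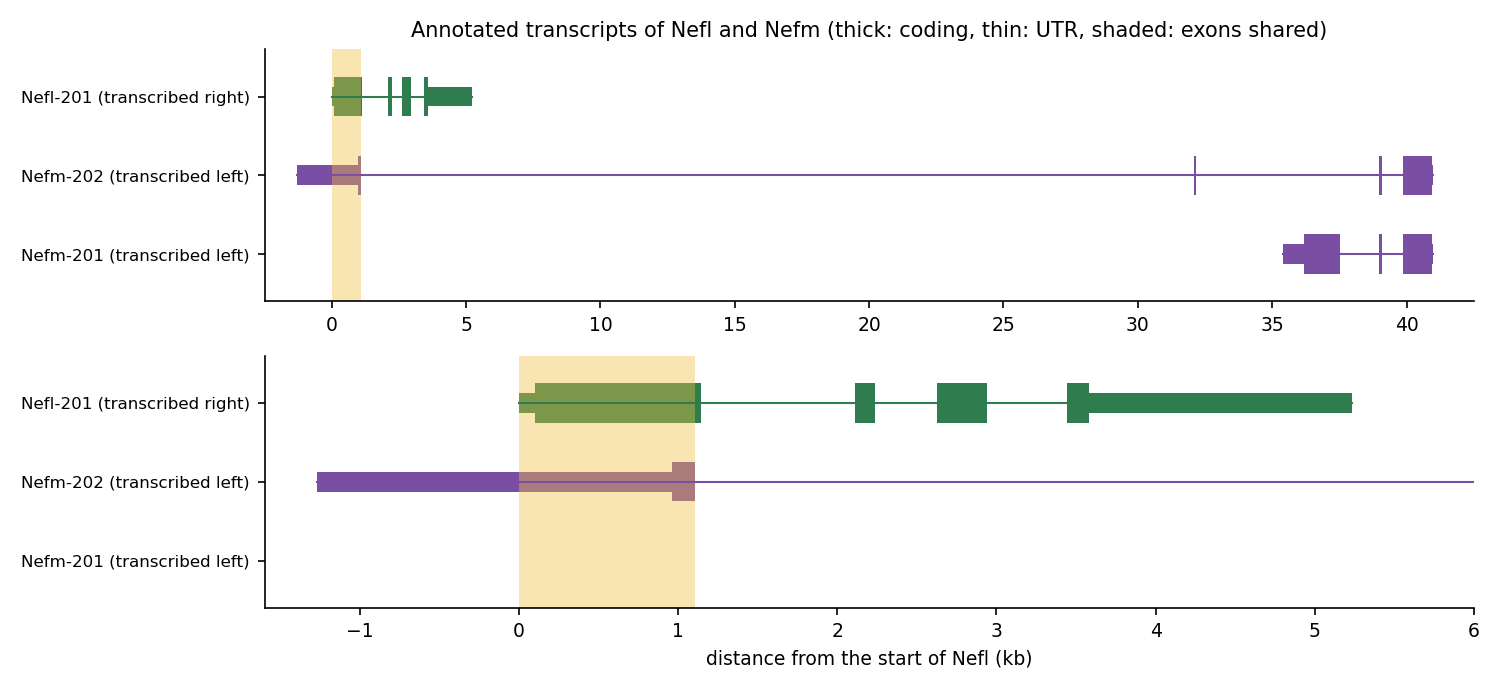
Map of the annotated transcripts of Nefl (green) and Nefm (purple) by distance from the start of Nefl in kilobases, whole locus above and the Nefl end below; thick boxes are coding, thin boxes UTR, and shading marks the 1108 shared exonic bases. The shared stretch is the first exon of Nefl and part of the last exon of Nefm-202, while Nefm-201 ends far from Nefl.

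The libraries do not record strand, and read pairs falling on exons of both genes were counted for neither in the column used here. Their number could still be read from the strand columns, which give each such pair to both genes in turn. It came to 1405, 991, 1007 and 1056 pairs in mutant replicates 1 to 4 and to 1751, 1650, 2881 and 1734 in wild-type replicates 1 to 4. Computed from the Nefm columns, the numbers were the same but for 1 pair, in wild-type replicate 2 (1651). For Nefh it was 0 in every library, for Prph at most 1, and for Ina, whose exons share 456 bases with Nt5c2, at most 6. The levels of Nefl and Nefm below therefore leave out part of the RNA of this locus.

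The shared pairs were a steady share of the Nefl reads. There were 0.668 ± 0.0528 shared pairs per pair counted for Nefl in mutant and 0.652 ± 0.0234 in wild-type libraries (SD over 4 libraries, two-sided exact permutation p = 0.6). Per pair counted for Nefm there were 0.481 ± 0.0838 and 0.346 ± 0.0600, and this ratio was higher in the mutants (exact permutation p = 0.0286, the smallest the design allows, and 0.0381 adjusted over the 4 measures of shared pairs tested). The lowest mutant value for Nefm, 0.4156, lay just above the highest wild-type value, 0.4153. The shared pairs themselves fell from 87.8 ± 19.6 to 48.2 ± 8.34 CPM (exact permutation p = 0.0286, adjusted 0.0381).

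**Figure D2:**
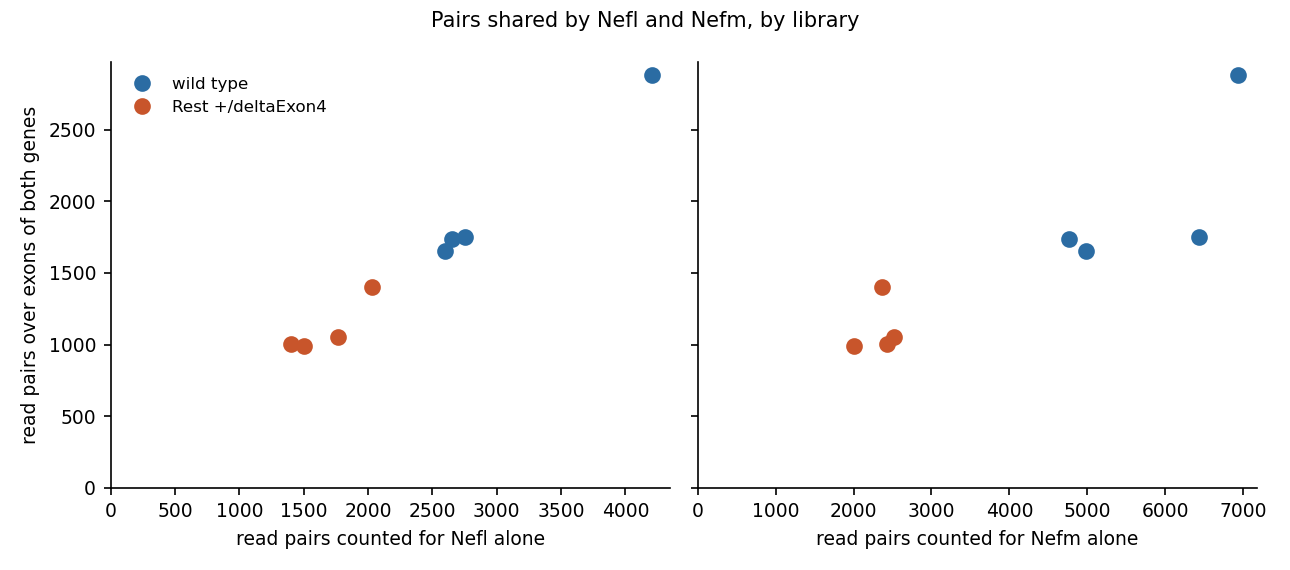
Read pairs over exons of both Nefl and Nefm (vertical axis) against pairs counted for Nefl alone (left) and for Nefm alone (right), 1 point per library. The points lie near 1 line through both genotypes for Nefl, whereas for Nefm the 4 mutant libraries have more shared pairs per Nefm pair (0.416 to 0.594) than the wild-type ones (0.272 to 0.415).

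The 2 abundant neurofilament genes fell in the mutant utricles, and the other 3 members did not pass the threshold. Over all genes tested, 173 of 16990 were lower in the mutants (1.02%) and 25 higher (0.147%) at an adjusted p under 0.05. Tested with edgeR (quasi-likelihood, Benjamini-Hochberg over all genes), 2 of the 5 members were among the lower genes and none among the higher. All 5 had a negative log2 change, with a median of -1.34 against -0.0027 over all genes tested. Without wild-type replicate 3, described below, the members' median was -0.75. In 4 of 5 the mutant libraries all lay below the wild-type ones, as did 4.89% of all genes tested.

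Nefm, the medium chain with its side arm, showed the steadiest change of the 5. It was at 101, 95.6, 101 and 103 CPM in mutant replicates 1 to 4 and at 274, 230, 281 and 231 CPM in wild-type replicates 1 to 4. The mutant libraries lay close together, and the lowest wild-type library was 127 CPM above the highest mutant one. The fitted level in mutants was 39.6% of wild type (log2 change -1.34 ± 0.08, SE, edgeR adjusted p = 1.88e-05). By adjusted p it was 5th of all 16990 genes, and by size of fall 69th of the 173 lower genes. Giving all shared pairs to Nefm made the log2 change -1.20 (edgeR adjusted p = 9.29e-05).

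Nefl, the light chain that forms the filament core, had a smaller estimated fall, but the Nefm to Nefl ratio below did not pass its test. Its levels were 86.9, 71.7, 58.4 and 72.4 CPM in mutant replicates 1 to 4 and 117, 120, 170 and 129 CPM in wild-type replicates 1 to 4. The groups did not overlap, with 30.3 CPM between them, and wild-type replicate 3 was the highest library. The mutant level was 54.0% of wild type (log2 change -0.89 ± 0.14, SE, edgeR adjusted p = 0.0116). With the shared pairs given to Nefl the level was 121 ± 19.5 against 222 ± 44.2 CPM (SD, n = 4 each), and the log2 change was -0.88 (edgeR adjusted p = 0.0153).

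Nefh, the heavy chain that accumulates as axons mature, was scarce at this age. It had 17, 22, 23 and 17 read pairs in mutant replicates 1 to 4 and 30, 58, 67 and 54 in wild-type replicates 1 to 4. On the CPM scale these were 0.729, 1.05, 0.960 and 0.695 against 1.28, 2.68, 2.71 and 2.62. The groups did not overlap, but wild-type replicate 1 (1.28 CPM) lay close to the highest mutant library (1.05 CPM). The log2 change was -1.43 ± 0.32 (SE), as large as that of Nefm, and the edgeR adjusted p was 0.0655. Without wild-type replicate 1 it was 0.0320, and DESeq2, which placed 2.42% of all genes among the lower ones, gave 0.00503.

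Ina, alpha-internexin, had a similar shape with 1 library standing out. It was at 1.54, 2.44, 2.71 and 2.09 CPM in mutant replicates 1 to 4 and at 3.53, 3.60, 8.82 and 3.44 CPM in wild-type replicates 1 to 4. Wild-type replicate 3 was 2.5 times the mean of the other wild-type libraries, which lay at 3.52 ± 0.0800 CPM (SD, n = 3). The groups did not overlap. The log2 change was -1.15 ± 0.34 (SE, edgeR adjusted p = 0.184), and without wild-type replicate 3 it was -0.68 (adjusted p = 0.306). DESeq2 on all libraries gave an adjusted p of 0.0440.

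Prph, peripherin, is the member whose difference rested on a single library. It was at 4.97, 5.11, 4.17 and 6.59 CPM in mutant replicates 1 to 4 and at 9.23, 5.54, 48.7 and 3.25 CPM in wild-type replicates 1 to 4. Wild-type replicate 3 was 8.11 times the mean of the other wild-type libraries, and wild-type replicate 4 lay below every mutant library. The log2 change was -1.68 ± 0.70 (SE, edgeR adjusted p = 0.336). Without wild-type replicate 3 it was -0.21 (adjusted p = 0.834).

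**Figure D3:**
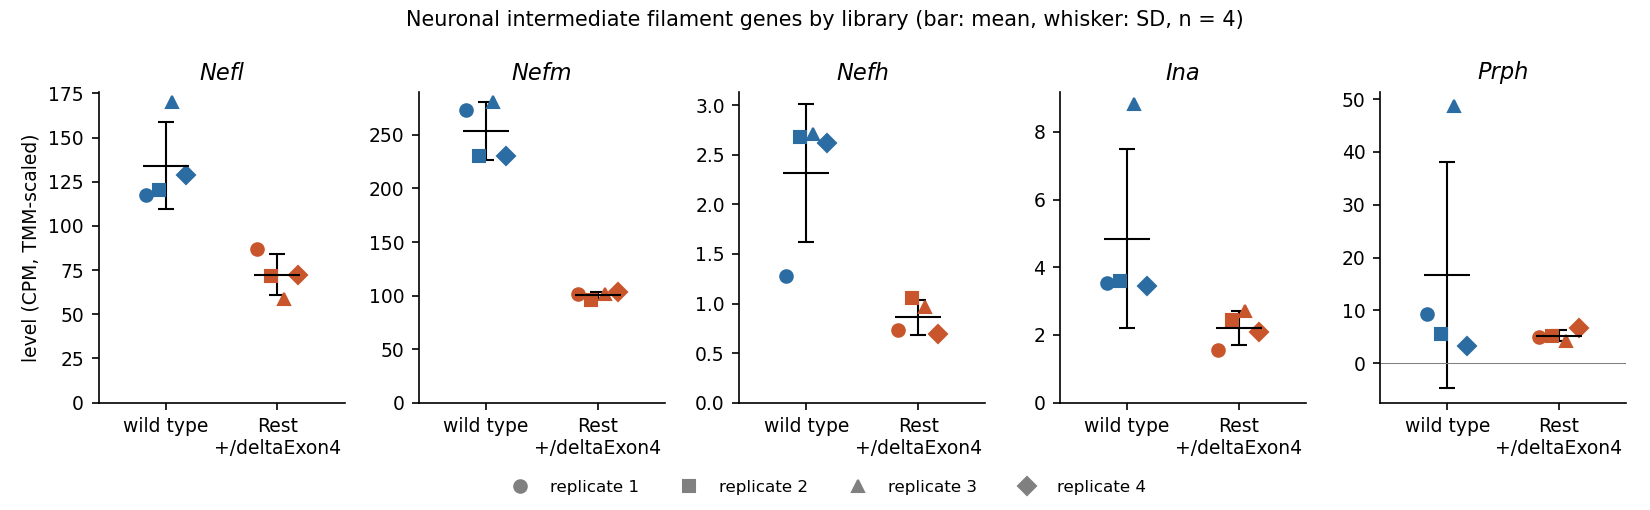
Level of each gene in CPM (vertical axis, a separate scale per gene) in the 4 wild-type (blue) and 4 mutant (orange) libraries, with symbols for replicate number, bars for means and whiskers for SD. The groups are separate for Nefl, Nefm, Nefh and Ina and overlap for Prph, where wild-type replicate 3 stands at 48.7 CPM.

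Wild-type replicate 3 carried more RNA of several neuronal genes. Of 11 ganglion neuron markers other than the members, 2 were more than 2-fold above the mean of the other wild-type libraries on the log2(CPM + 1) scale: the neuronal tubulin gene Tubb3 (62.0 CPM, against 18.6 at most in the others) and the microtubule regulator gene Stmn2 (42.7 against at most 11.1). The RNA-binding protein gene Elavl4 (24.2 CPM against at most 13.5) and the growth cone gene Gap43 (48.8 against at most 32.7) were raised less. The neuronal transcription factor gene Isl1 was not raised, at 140 CPM against at most 162. On that log2 scale the median of the 11 markers lay 0.46 above the mean of wild-type replicates 1, 2 and 4. This median was -0.08 to 0.17 in the other wild-type libraries and -0.05 to 0.45 in the mutants. The 11 markers summed to 391 CPM in wild-type replicate 3. The sum was 251 to 301 CPM in wild-type replicates 1, 2 and 4 and 257 to 321 CPM in the mutants. Without this library 0.614% of genes were lower in the mutants, and Nefm (log2 change -1.29, edgeR adjusted p = 0.000138) and Nefl (-0.75, adjusted p = 0.0201) remained among them.

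**Figure D4:**
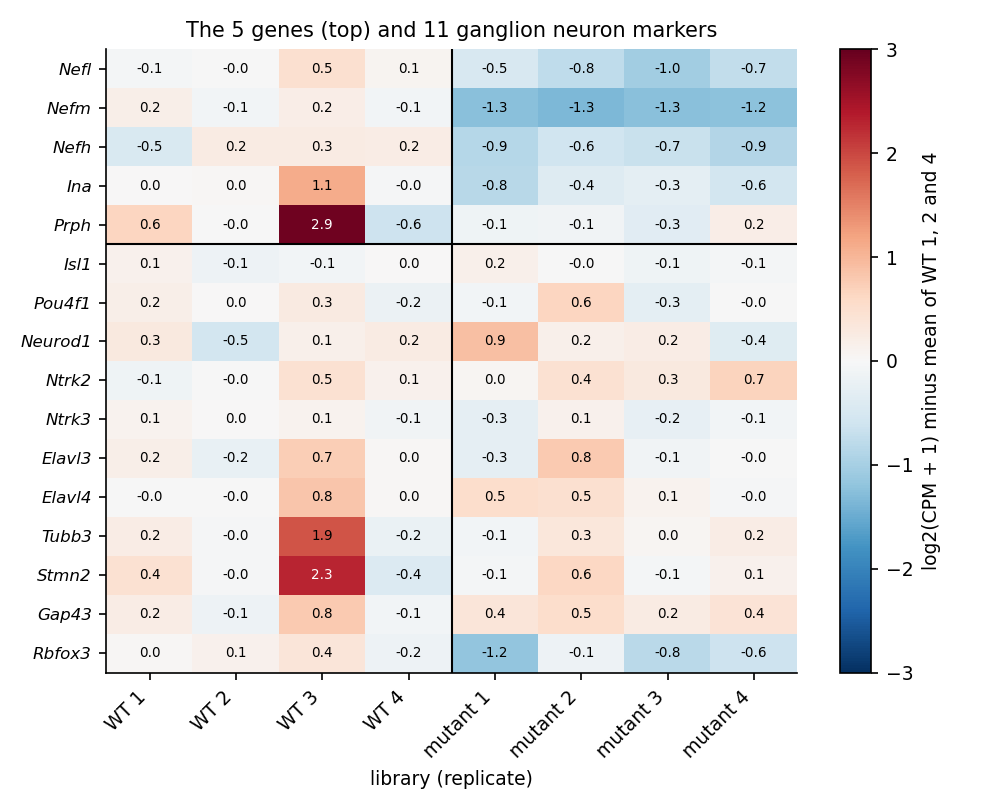
Difference of each library from the mean of wild-type replicates 1, 2 and 4, in log2(CPM + 1), for the 5 genes (upper rows) and 11 ganglion neuron markers (lower rows). Wild-type replicate 3 is high for Prph (2.92) and Stmn2 (2.29), while Nefm is low in all 4 mutant libraries (-1.34 to -1.23) and the markers are not low as a group there.

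The members were also set against those markers within each library. None of the 11 markers passed by edgeR in either direction, against 1.02% lower and 0.147% higher over all genes tested. Their median log2 change was 0.01 (0.16 without wild-type replicate 3). At an unadjusted p under 0.05, 1 was lower and 0 higher. That was the neuronal splicing factor gene Rbfox3 (log2 change -0.93, edgeR adjusted p = 0.185), which DESeq2 called lower (-0.92, adjusted p = 0.0447). The log2 ratio of Nefm to the summed markers was -1.52 ± 0.17 in mutants against -0.23 ± 0.16 in the wild type (SD, 4 libraries each), a difference of -1.29. For Nefl it was -2.01 ± 0.18 and -1.17 ± 0.15, a difference of -0.84. The differences for Nefh and Ina were -1.35 and -1.0. For these 4 genes the groups did not overlap (exact two-sided permutation p = 0.0286 each, the smallest possible, and 0.0357 adjusted over the 5 ratios). The same 4 genes already did not overlap in CPM. The marker sums overlapped, at 257 to 321 CPM in mutants and 251 to 391 CPM in the wild type. These ratios therefore largely repeat the separation in CPM, and the share of all genes with such ratios is not given. For Prph the difference was -0.84 with overlapping groups (exact permutation p = 0.314, adjusted 0.314), and it was -0.18 without wild-type replicate 3. Isl1 was the largest part of the marker sum, with 147 ± 13.4 CPM in mutants and 146 ± 12.6 CPM in the wild type (SD). Unlike Tubb3 and Stmn2, Isl1 was not raised in wild-type replicate 3. Whether its RNA came from ganglion neurons was not tested. With the mean of log2(CPM + 1) over the markers in place of the sum, the differences were -1.24 for Nefm and -0.79 for Nefl. They were then -1.29 for Nefh, -0.95 for Ina and -0.79 for Prph. Tubb3 and Stmn2, which were high in wild-type replicate 3, are also part of the marker sum. In that library the ratios of Nefl and Nefm to the markers were -1.20 and -0.48, both above the highest mutant values of -1.79 and -1.35.

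Whether the subunits changed in different proportion was tested on their ratios to Nefl within each library. The log2 ratio of Nefm to Nefl per kilobase was -0.56 ± 0.24 in mutants against -0.11 ± 0.21 in the wild type (SD, 4 libraries each). The difference of -0.45 had an exact permutation p of 0.0571, or 0.229 adjusted over the 4 ratios. For Nefh the difference was -0.50, for Ina -0.16 and for Prph 0.0035, with exact permutation p of 0.171, 0.743 and 1 (adjusted 0.343, 0.99 and 1). All 4 ratios overlapped between genotypes, so a change in the proportions was not shown. These p-values do not show that the proportions were alike. The Prph value rested on single libraries, being 0.67 when wild-type replicate 3 was left out and -0.50 when replicate 4 was.

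Compared per kilobase of exon that no other gene shares, Nefl and Nefm stood far above the other members. In wild-type libraries they were at 59.0 ± 10.8 and 54.3 ± 5.81 CPM per kilobase, Prph at 8.34 ± 10.7, Ina at 1.74 ± 0.951 and Nefh at 0.581 ± 0.175 (SD, n = 4). Among 14396 protein-coding genes ranked on this scale Nefl was 906th, Nefm 993rd, Prph 5120th, Ina 10200th and Nefh 12540th. The level of Prph rested on wild-type replicate 3, at 24.4 CPM per kilobase. Without that library Prph was at 3.005 ± 1.51 CPM per kilobase (SD, n = 3) and 8633rd. In mutant libraries the levels were 31.8 ± 5.12 for Nefl, 21.5 ± 0.707 for Nefm, 2.61 ± 0.503 for Prph, 0.789 ± 0.181 for Ina and 0.215 ± 0.0436 for Nefh. Nefl and Nefm did not differ beyond their spread in the wild type, and Nefl was above Nefm in 4 of 4 mutant libraries. That order depends on the length taken for Nefm. With all Nefm reads divided by the 3334 bases of Nefm-201, Nefm was at 76.1 ± 8.14 CPM per kilobase in wild-type libraries. That was above Nefl in 4 of 4. In mutants Nefm was then at 30.1 ± 0.991, above Nefl in 1 of 4. Reads on exons found only in Nefm-202 were not taken out. Together the 5 genes drew 412 ± 68.9 CPM in the wild type against 181 ± 12.1 CPM in mutants (SD over 4 libraries).

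Across the 8 libraries the genes with the most similar profile differed between members. The 3 protein-coding genes whose log2(CPM + 1) profile was most like that of Nefm, among 11151 genes of at least 5 CPM, were the sodium channel subunit gene Scn3b, the membrane protein gene Tmem179 and the secretory granule gene Scg3 (Pearson r = 0.991, 0.991 and 0.989 over 8 libraries). All 3 were lower in the mutants, with log2 changes of -2.51, -5.08 and -4.44. The profile of Prph was most like those of Tubb3, Stmn2 and the tau gene Mapt (r = 0.965, 0.956 and 0.939), which, like Prph, were highest in wild-type replicate 3. Nefl was closest to Scly, Cox15 and Itga5 (r = 0.991, 0.961 and 0.958), Nefh to Rab3gap1, Pear1 and Pipox (0.984, 0.951 and 0.947) and Ina to Snrpn, 5330417C22Rik and Slc7a4 (0.959, 0.94 and 0.913). Between members, r was 0.918 for Nefl and Nefm, but 0.37 once each genotype's mean was subtracted. For Ina and Prph it was 0.819 before and 0.844 after that subtraction. For Nefm and Prph it was 0.499 and 0.799, and for Nefm and Nefh 0.827 and -0.507. After the subtraction the genes closest to Nefm were Ildr1, Atp6v1g2 and Stx1a (r = 0.948, 0.940 and 0.936), not Scn3b, Tmem179 or Scg3. These correlations share libraries and the genotype difference. The named genes are the highest of 11151 over 8 libraries, and so many comparisons on so few libraries can give high r by chance. The correlations are given as a description.

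Among other intermediate filament genes no fall passed the test. Of 17 tested by edgeR, none was lower and 2 were higher, against 1.02% and 0.147% of all genes tested. Their median log2 change was 0.11. At an unadjusted p under 0.05, 0 were lower and 3 higher, and DESeq2 called 0 lower and 3 higher. The lamin gene Lmna, of the nuclear envelope, rose from 81.9 ± 5.82 to 122 ± 13.4 CPM, and the epithelial keratin gene Krt8 from 74.4 ± 5.29 to 95.0 ± 3.4 CPM (SD over 4 libraries, edgeR adjusted p = 0.0116 and 0.0415). Neither call held when wild-type replicate 3 was left out (edgeR adjusted p = 0.05002 and 0.147), although the log2 changes were then 0.55 and 0.33 against 0.57 and 0.35 with all libraries. That of Krt8 also failed in 6 of the 7 fits leaving out another library. Nestin (Nes), the filament of neural progenitors, was at 42.6 ± 3.60 and 43.2 ± 4.53 CPM, and vimentin (Vim), of mesenchyme and glia, at 260 ± 36.1 and 252 ± 24.3 CPM in mutant and wild-type libraries (edgeR adjusted p = 0.945 and 0.897).

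The proteins that handle neurofilaments were tested from lists of cytolinkers and turnover factors (14 genes tested), transport motors (12), kinases and phosphatases (18) and mRNA-binding proteins (8). None of these 52 genes passed by edgeR in either direction, against 1.02% lower and 0.147% higher over all genes tested. At such shares a list of this size may hold no called gene. At an unadjusted p under 0.05, 4 were lower and 5 higher. The list medians lay between -0.01 and 0.06 on the log2 scale. The kinesin gene Kif5a, a motor for neurofilament transport, had 4.12 ± 0.391 CPM in mutants against 8.91 ± 3.92 CPM in the wild type (SD over 4 libraries, edgeR adjusted p = 0.106). The neuronal kinase gene Mapk10 was at 4.76 ± 0.929 and 9.71 ± 2.41 CPM (adjusted p = 0.0517). DESeq2 called both lower (adjusted p = 0.00652 and 0.00084) and 1 other of the 52, the kinase gene Prkaca, higher. These 3 genes were named after their values were seen.

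Among 16 other genes of the axonal cytoskeleton 3 fell and none rose by edgeR, against 1.02% and 0.147% of all genes tested. Their median log2 change was -0.18, and -0.05 without wild-type replicate 3. DESeq2 called the same 3 lower and the tubulin gene Tubb2b higher. Stmn3, a regulator of microtubules, had 3.04 ± 0.801 CPM in mutants against 16.6 ± 6.00 CPM in the wild type. Crmp1, which acts in axon guidance, was at 5.69 ± 1.16 and 13.8 ± 4.23 CPM, and the synuclein gene Sncg at 10.8 ± 1.82 and 25.1 ± 7.60 CPM (SD, n = 4 each). Their edgeR adjusted p were 0.00146, 0.0200 and 0.0174. The call of Crmp1 was lost without mutant replicate 1 or 4 (adjusted p up to 0.0559), and that of Sncg without mutant replicate 1, 2 or 3 or wild-type replicate 1 (up to 0.0590). Tubb3 did not pass (log2 change -0.64, adjusted p = 0.538), and without wild-type replicate 3 it was at 0.14. Gap43, of growth cones, was at 36.7 ± 3.17 and 33.1 ± 10.99 CPM (edgeR adjusted p = 0.778).

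Marker levels of other cell types are given beside these results. The 15 hair cell markers summed to 754 to 915 CPM in the mutants against 859 to 992 CPM in the wild type, and 2 of them fell, the synaptic gene Otof and the hair bundle gene Loxhd1 (edgeR adjusted p = 0.000319 and 0.0228). Loxhd1 passed in only 2 of 8 fits leaving out 1 library each. At an unadjusted p under 0.05, 5 hair cell markers were lower and 3 higher. DESeq2 called 3 lower (Otof, Loxhd1 and Ocm) and 1 higher, Pvalb (edgeR log2 change 0.63, adjusted p = 0.0517). Schwann cell markers summed to 734 to 876 CPM in the mutants against 677 to 788 CPM in the wild type, and none of the 10 tested passed by edgeR (0 lower and 2 higher at an unadjusted p under 0.05). None of 10 supporting cell and 9 mesenchyme markers passed by edgeR, with 0 lower and 1 higher in each list at an unadjusted p under 0.05. DESeq2 called 0 in the Schwann cell, supporting cell and mesenchyme lists. Over all genes tested, 1.02% were lower by edgeR and 0.147% higher. From which cells the RNA of the members came was not tested.

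Genes next to the members were also tested. Within 250 kb of the 5 genes, 40 other genes were tested. None passed by edgeR in either direction, against 1.02% lower and 0.147% higher over all genes tested. At such shares a list of 40 genes may hold no called gene. The median log2 change of the 40 was 0.02. At an unadjusted p under 0.05, 1 was lower and 3 higher, and DESeq2 called 0 lower and 1 higher (Neurl1a). Near Nefl and Nefm the only other gene tested was Dock5, with 4.75 CPM in mutants against 4.58 CPM in the wild type. Nefh (chromosome 11, 4938754 to 4948064, minus strand) had 13 tested neighbours, Ina (chromosome 19, 47014698 to 47025327, plus strand) 9 and Prph (chromosome 15, 99055174 to 99058978, plus strand) 17, with log2 changes from -0.59 to 0.82 and no adjusted p below 0.177 by edgeR.

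RefSeq promoter windows (GRCm38.p6) were at hand for Ina and Prph. The 250 bases before each start are printed because both genes were high in the same wild-type library, with the TATA box letters TATAAA in capitals. Prph holds this motif 31 bases before its start, and Ina does not hold it in these 250 bases. Of all 32851 windows 13.6% hold it on either strand, but those windows have 300 bases, 50 of them after the start. The closest match to the RE1 consensus, the binding motif of REST, had 2 mismatches in the Prph window of 300 bases and 3 in that of Ina. A match with up to 2 mismatches occurs in 10.2% of all windows and with up to 3 in 55.0%. The Prph sequence is chr15:99054924-99055173 and the Ina sequence chr19:47014431-47014680, both plus strand.

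Prph: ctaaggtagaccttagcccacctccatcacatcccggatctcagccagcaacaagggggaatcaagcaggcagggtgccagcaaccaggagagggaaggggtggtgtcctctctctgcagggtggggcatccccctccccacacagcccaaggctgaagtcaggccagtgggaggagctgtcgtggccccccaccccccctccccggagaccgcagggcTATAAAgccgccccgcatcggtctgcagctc
Ina: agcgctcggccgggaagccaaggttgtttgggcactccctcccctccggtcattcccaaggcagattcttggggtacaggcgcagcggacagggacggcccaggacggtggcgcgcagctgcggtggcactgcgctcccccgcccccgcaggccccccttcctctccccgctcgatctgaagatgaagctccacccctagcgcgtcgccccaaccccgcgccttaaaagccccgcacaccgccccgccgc

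The plot of alternatives sets the change of each gene under every processing beside the one reported. For Nefm it stayed between -1.38 and -1.20 and past the threshold in all 17. For Nefl it stayed between -0.99 and -0.75, and past the threshold in 16; with a replicate block, where 0.471% of genes were lower, its adjusted p was 0.0820 by edgeR. For Prph it ran from -2.02 to -0.21 and passed in none.

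**Figure D5:**
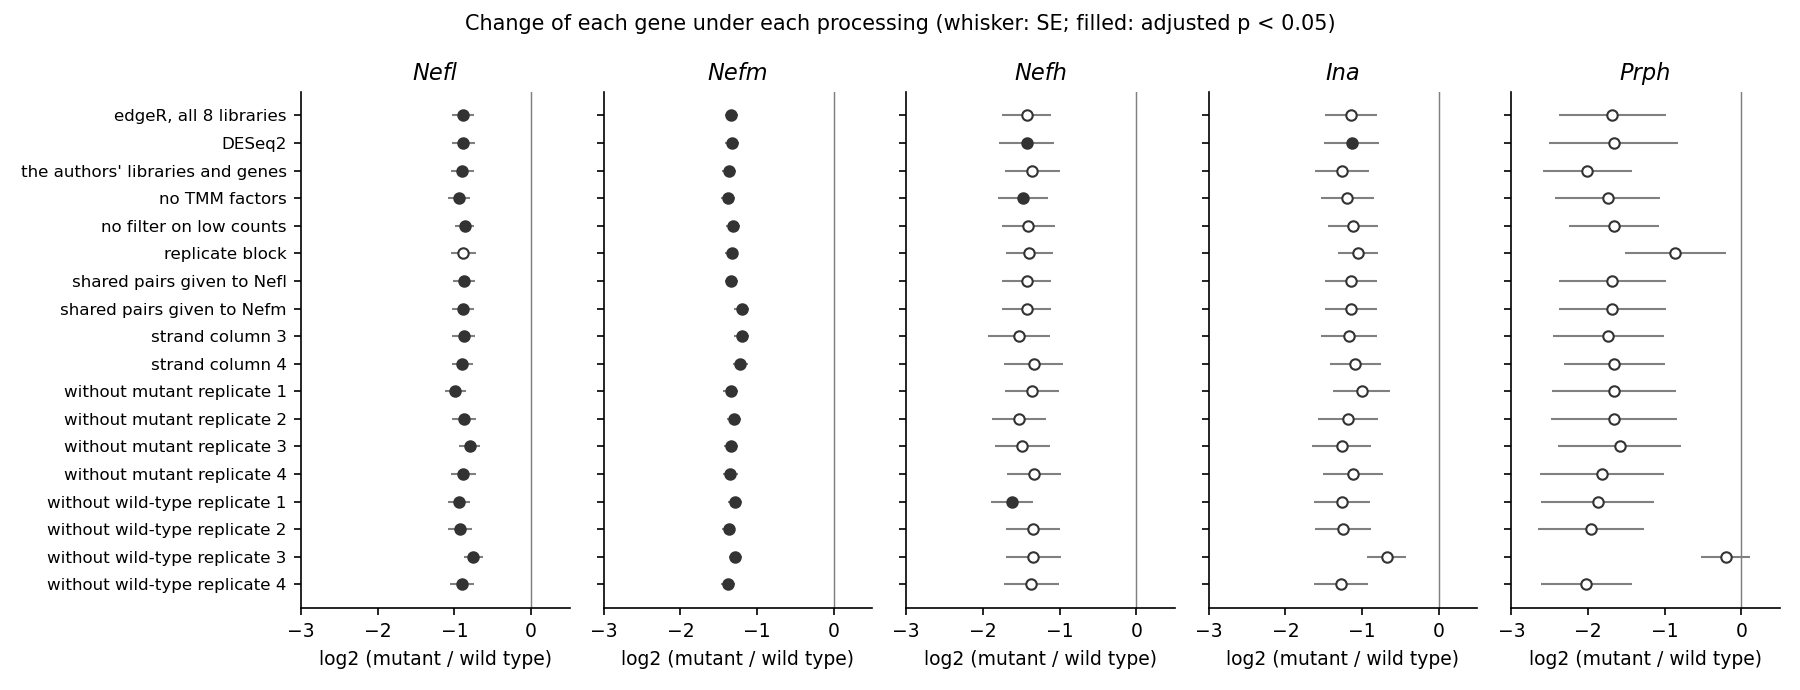
Log2 ratio of mutant to wild type (horizontal axis) with SE for each of the 5 genes under the reported fit (top) and 17 alternatives, filled where the adjusted p is under 0.05. Nefm is filled throughout, Nefl in all but the fit with a replicate block, and Prph moves to -0.21 when wild-type replicate 3 is left out.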

How the data were processed

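Per the labels' protocols, pooled total RNA was turned into cDNA (oligo-dT, template switching), amplified and tagmented. The authors deposited gene counts for each library, whole numbers of read pairs that are not normalized. The tools and build named are STAR 2.5.2a and GRCm38.p4, per the submitters' processing notes; the annotation release is not given in the sources used here. The authors also deposited normalized counts of 7 libraries (without wild-type replicate 4), a signal made with DESeq2 by dividing counts by a size factor, per the file header and processing notes. With the factors recovered, 100% of its values were whole reads (tolerance 0.001) and equal to the counts. The count test on those libraries and their 21369 genes called 107 genes lower and 20 higher. Lines naming no gene held 25.2% to 33.9% of pairs and were left out.

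Symbols, coordinates and exon lengths came from GENCODE M21 (48349 of 48823 identifiers matched). The unstranded column was used. Low genes were removed (filterByExpr, 10 reads in a library and 15 in total), libraries were scaled by TMM, and edgeR 4.0.16 (R 4.3.3) tested genotype by quasi-likelihood, with Benjamini-Hochberg adjustment over 16990 genes and a threshold of 0.05. SE is the log2 change divided by the square root of F. CPM used TMM-scaled library sizes. Ratios were compared by exact two-sided permutation over 70 assignments of libraries, which cannot give p below 0.0286. Replicates are separate pools by their titles only, so p-values measure the spread between these libraries. The fit was tested on simulated data. Named genes were the members, the listed companions, the 3 genes most like each member, list members past the threshold, neighbours within 250 kb, and genes said to be named otherwise. Tubb3, Stmn2, Isl1, Elavl4, Gap43, Rbfox3, Tubb2b, Ocm, Pvalb and Neurl1a were also picked from the lists or neighbours after their values were seen. The members and lists were chosen with earlier results of these data known. For list counts at an unadjusted p under 0.05, the share of all genes is not given. Alternatives were DESeq2 1.42.0, no TMM, no filter, a replicate block, the strand columns, the authors' libraries, each library left out, and, chosen after seeing the data, the shared Nefl and Nefm pairs given to either gene.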

Additional observations from a re-analysis of the deposited data

Results flagged for a closer look

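Levels within each genotype were checked for 1 library far from the other 3 in 50 groups of 4 values (Dixon's test at 95%, which flags about 1 in 20 groups by chance), and 5 were found. Prph was at 48.7 CPM in wild-type replicate 3 and at 3.25 to 9.23 CPM in wild-type replicates 1, 2 and 4. Ina was at 8.82 CPM in the same library against 3.44 to 3.60 CPM. Nefh was at 1.28 CPM in wild-type replicate 1 against 2.62 to 2.71 CPM. The log2 ratio of Prph to the ganglion neuron markers was -5.41 in mutant replicate 4 against -5.97 to -5.91 in the other mutants. Erythroid markers summed to 6323.5 CPM in wild-type replicate 4 while wild-type replicates 1 to 3 had 494 to 591 CPM. Without replicate 4 the log2 changes were -1.38 for Nefm and -0.91 for Nefl.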

How the results depend on the processing

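The number of genes lower in mutants was 173, and it was 411 with DESeq2, 107 with the authors' libraries and genes, 80 with the replicate block and 105 to 140 with 1 library left out. For higher genes the number was 25, and it was 153 with DESeq2, 16 with the replicate block and 12 to 28 with 1 library left out. Replicate numbers did not pair libraries (correlations of same-numbered deviations 0.0237, -0.0983, 0.0322 and -0.0942 for replicates 1 to 4). In the fit with the replicate block Nefl was at -0.88 (edgeR adjusted p = 0.0820, not past the threshold) and Nefm at -1.33 (0.000718). Nefh passed with DESeq2 (-1.43, adjusted p = 0.00503), without TMM factors (-1.48, 0.0467) and without wild-type replicate 1, and was -1.62 to -1.34 with 1 library left out. Ina passed with DESeq2 only (-1.14, adjusted p = 0.0440). The cause of these changes was not tested. With 1 library left out, the ratio of Prph to the neuron markers ran from -1.30 to -0.18 and that to Nefl from -0.50 to 0.67. The ratios to the markers ran from -0.92 to -0.79 for Nefl, -1.37 to -1.21 for Nefm, -1.62 to -1.18 for Nefh and -1.17 to -0.80 for Ina. An exact p cannot then fall below 0.0571. Depth limits Nefh most, with 17 to 67 read pairs per library.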
